A study of Mus musculus with 6 samples.

Results

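Gene-dense bins of the mouse autosomes were followed through the differentiation of C2C12 cells, a myoblast line from the thigh muscle of C3H mice that fuses into myotubes. A bin of 500 kb was counted as gene-dense where it held 10 or more transcription start sites (TSSs) of protein-coding genes, 1 per gene in the GENCODE annotation. Bins with an olfactory (Olfr) or vomeronasal (Vmn1r, Vmn2r) receptor gene were left out, and a diagonal value above 0.5 was required in all 3 matrices. The rule gave 516 of the 4727 autosomal bins with data in all 3 conditions, from 5455 bins of the matrices in all. These 516 bins (10.9%) held 8032 of the 20807 autosomal protein-coding TSSs (38.6%). Another 111 bins with 10 or more TSSs were left out for receptor genes and 19 for missing data.

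Hi-C with the enzyme HindIII was performed on 3 groups, each with 2 biological replicates that the authors pooled into 1 matrix. Myoblasts had proliferated for 72 h and were taken at day 0, before differentiation. Myotubes were taken at day 3 of differentiation, from cultures that still held myoblasts. AraC-treated myotubes were taken at day 7, after 10 µg/ml AraC (cytosine arabinoside, which kills dividing cells) from day 3. The paper describes the removal of their myoblasts as apparent, so some may have remained. The effects of AraC and of the later day cannot be told apart. All 3 groups are the same line, so the values describe cells in culture and not muscle tissue. The matrices hold no transcript levels, and markers of myoblasts and myotubes were not checked here. With 1 matrix per condition there is no replicate error, and no test between conditions was possible. The matrices give correlation coefficients and no contact counts, so the depth behind a single coefficient is unknown. The paper reports that depth differed between the pooled libraries, with most valid di-tags in myotubes and fewest in AraC-treated myotubes. It also reports that replicate matrices correlated less in myoblasts than in either myotube condition. The myoblast replicates correlated only a little more with each other than with myotubes. Intervals are 95% exact binomial intervals over bins or genes. They cover only counting error, and adjacent bins are not independent of each other.

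In Hi-C data the chromosomes divide into an A compartment of open, transcribed chromatin and a B compartment of compact, mostly silent chromatin. Each compartment prefers contacts with its own kind, within and between chromosomes. Gene-dense chromatin is usually GC-rich, replicates early and lies in A, and many of its genes are housekeeping genes with CpG island promoters. Mammalian genomes also hold dense clusters of a different sort, in which repeated duplication of 1 ancestor left rows of related genes that are used in few tissues. Keratins, kallikreins, defensins, serpins and protocadherins are clusters of this sort.

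The promoters of the bins at either end of the compartment scale show what such bins hold. They are the 250 bases before the start of the gene record, read from the RefSeq genome (build GRCm38.p6, the sequence of mm10), with each CG dinucleotide in capitals. Dpm2, a subunit of dolichol-phosphate mannose synthase, and Tor1a, an ATPase of the endoplasmic reticulum and nuclear envelope, came from the 2 bins farthest into A. Lig3, a DNA ligase, and Myh2, a fast myosin heavy chain of muscle, came from the 2 bins farthest into B. Each was picked as the gene with the median CG count among the named genes of its bin.
Dpm2 (chr2:32570608-32570857, + strand): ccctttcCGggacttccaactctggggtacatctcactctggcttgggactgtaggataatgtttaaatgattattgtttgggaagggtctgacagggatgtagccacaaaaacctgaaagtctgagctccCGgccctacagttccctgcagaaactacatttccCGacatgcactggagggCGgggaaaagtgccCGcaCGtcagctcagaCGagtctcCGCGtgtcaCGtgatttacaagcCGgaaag
Tor1a (chr2:30967934-30968183, - strand): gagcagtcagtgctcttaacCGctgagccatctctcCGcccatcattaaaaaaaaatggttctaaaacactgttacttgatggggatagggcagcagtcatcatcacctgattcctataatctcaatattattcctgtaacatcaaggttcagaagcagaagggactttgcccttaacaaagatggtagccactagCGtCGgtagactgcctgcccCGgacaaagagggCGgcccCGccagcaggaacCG
Lig3 (chr11:82780858-82781107, + strand): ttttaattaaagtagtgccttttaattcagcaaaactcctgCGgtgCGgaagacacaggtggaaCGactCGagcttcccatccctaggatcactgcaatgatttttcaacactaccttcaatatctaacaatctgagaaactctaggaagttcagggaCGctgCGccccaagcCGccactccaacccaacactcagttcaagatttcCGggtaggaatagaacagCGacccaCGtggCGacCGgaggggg
Myh2 (chr11:67170777-67171026, + strand): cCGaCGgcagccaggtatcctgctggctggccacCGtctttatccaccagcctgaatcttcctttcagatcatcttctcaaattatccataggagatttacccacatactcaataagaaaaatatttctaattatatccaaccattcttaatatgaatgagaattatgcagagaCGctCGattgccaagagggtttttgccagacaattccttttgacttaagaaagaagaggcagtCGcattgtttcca
The promoter of Dpm2 held 11 CG, that of Tor1a 8, that of Lig3 12 and that of Myh2 6. The order of the 4 therefore does not follow the compartment of their bins, and the difference between compartments showed only over all promoters, as described further on.

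Compartments were assigned by the first principal component (PC1) of the matrix of each chromosome, where values above 0 stand for A and values below 0 for B. The sign of PC1 was set by TSS counts, which the choice of bins also used, so the share of gene-dense bins in A is a description. PC1 correlated with the mean coefficient to A bins minus that to B bins of other chromosomes on all 19 autosomes, with a lowest r of 0.984, 0.997 and 0.995 in myoblasts, myotubes and AraC-treated myotubes. The A and B bins of the other chromosomes were themselves set by TSS counts. GC content uses no gene count, and its correlation with PC1 was also positive on all 19, with a lowest r of 0.32, 0.28 and 0.28. The sign by TSS counts was weakest on chr 13, where r was 0.12, 0.06 and 0.05 in the 3 conditions in turn.

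Most gene-dense bins were in A in every condition. PC1 was above 0 in 405 of 516 bins in myoblasts (78.5%, interval 74.7 to 82.0), against 38.3% of all autosomal bins. In myotubes it was above 0 in 399 bins (77.3%, 73.5 to 80.9), against 36.5%. In AraC-treated myotubes it was above 0 in 398 bins (77.1%, 73.3 to 80.7), against 35.5%. The 3 intervals overlapped one another. Bins in A throughout numbered 379 (73.4%, against 31.3% of all autosomal bins), bins in B throughout 94 (18.2%, against 57.4%), and 43 bins differed in sign between conditions.

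To set conditions side by side, PC1 was divided by its standard deviation over the 4727 autosomal bins, which came to 0.859 (myoblasts), 1.61 (myotubes) and 1.36 (AraC-treated myotubes). This scaled PC1 had a median of 1.30, 1.38 and 1.31 over gene-dense bins, in the same order of conditions, and of −0.39, −0.45 and −0.46 over the other autosomal bins. On all 19 autosomes the median of the gene-dense bins lay above that of the other bins in each condition. Chr 11 held the most gene-dense bins, 59 of its 237 bins, of which 50 were in A throughout. Chr 13 had 13, of which 7 were in A and 6 in B throughout.

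The share in A was higher in bins with more TSSs, up to 20 to 29 TSSs in each condition. From there to the 22 bins with 30 or more it went from 90.6% to 81.8% in myotubes. In AraC-treated myotubes it went from 85.9% to 81.8%. In myoblasts it was 13.9% of bins without a TSS, 33.0% of bins with 1 to 4, 60.3% with 5 to 9, 73.9% with 10 to 14, 80.4% with 15 to 19, 89.4% with 20 to 29 and 90.9% with 30 or more. Bins just inside the threshold, with 10 TSSs, were in A in 62.7% of 75 cases, and those just outside, with 9 TSSs, in 71.7% of 113 cases, so there was no upward step at the threshold. Of the 111 receptor gene bins, also with 10 or more TSSs, 22 were in A in myoblasts (19.8%, interval 12.9 to 28.5) and 20 in each myotube condition. The interval in myoblasts lay wholly below that of the gene-dense bins.

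**Figure D1:**
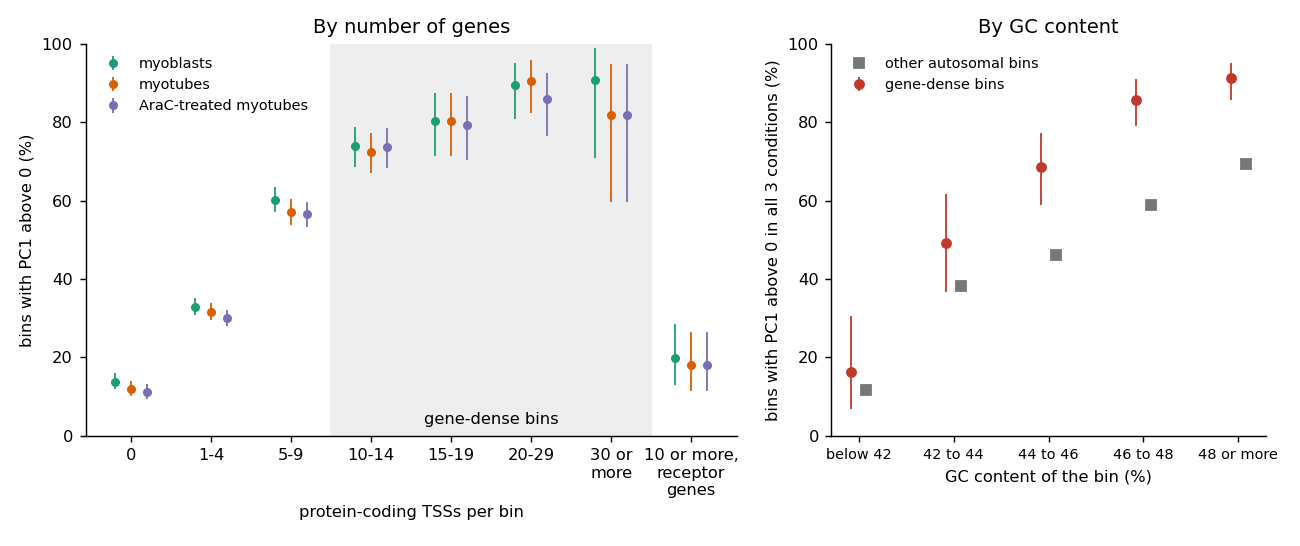
Left, share of autosomal 500 kb bins with PC1 above 0 (%) by number of protein-coding TSSs in each condition, with gene-dense bins on the grey ground. Right, share of bins with PC1 above 0 in all 3 conditions (%) by GC content, for gene-dense and other autosomal bins. Bars are 95% exact binomial intervals. In myoblasts the share ran from 13.9% without a TSS to 90.9% with 30 or more and was 19.8% in receptor gene bins. It ran from 16.3% in the lowest to 91.2% in the highest GC class of gene-dense bins.

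GC content, which the choice of bins did not use, followed the compartment. The median GC content was 47.5% in gene-dense bins in A throughout and 43.4% in those in B throughout, against 41.2% in the other autosomal bins. Among gene-dense bins with under 42% GC, 7 of 43 were in A throughout (16.3%), and among those with 48% or more, 146 of 160 (91.2%). The other autosomal bins were in A in 11.6% of cases below 42% GC, inside the interval of the gene-dense bins (6.81 to 30.7), and in 69.5% at 48% or more, below their interval (85.8 to 95.1). Scaled PC1 correlated with GC content at r = 0.53, 0.54 and 0.52 over the 516 bins, and with the number of TSSs among them at only 0.18, 0.16 and 0.14. HindIII sites, at which the libraries were cut, went the other way, with a median of 134 in A and 155 in B and r of −0.41, −0.42 and −0.39 with scaled PC1. The part of GC content and of HindIII sites in these shares was not tested.

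Promoters differed in the same direction. The 250 bases before the start held a median of 11 CG over the 6109 genes of bins in A throughout and 4 over the 1302 genes of bins in B throughout, against 9 over the 20355 autosomal genes with full sequence. Of these promoters 54.2% in A and 25.6% in B held 10 or more CG, against 9774 of all 20355. The motif TATAAA, searched on both strands, was in 530 of the promoters in A (8.68%) and 248 of those in B, against 11.3% of all, and a match is not a site in use. Of the 101 gene-dense bins whose promoters had a median under 5 CG, 55 were in B throughout and 32 in A. Of the 82 bins with a median of 15 or more, 6 were in B throughout and 72 in A. Scaled PC1 correlated with the median CG count of the 516 bins at r = 0.41, 0.44 and 0.41.

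Housekeeping genes of the gene-dense bins lay mostly in A, as did all genes of these bins. Gene lists were set by symbol, and over all 8032 genes of these bins 76.1% were in A and 16.2% in B throughout. Of 44 genes of cytosolic ribosomal proteins, which build the ribosome, 37 were in A and 2 in B. Of 26 proteasome subunits, which degrade tagged proteins, 24 were in A and 1 in B. Splicing factors were in A in 32 of 37 cases and in B in 3, and RNA polymerase subunits in A in 13 of 14 and in B in 1. Subunits of oxidative phosphorylation were in A in 34 of 41 cases and in B in 5. The shares in A ran from 82.9% (oxidative phosphorylation) to 92.9% (RNA polymerase), and their difference from the 76.1% was not tested. Outside gene-dense bins 57.1% of 35 ribosomal protein genes and 52.6% of 38 oxidative phosphorylation genes were in A throughout, and 38.6% of all genes.

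Genes of the duplicated families on the lists were a larger share of the genes in B than in A. Families not on the lists were not counted, such as the Pramef genes of chr4:143500001-144000000, a bin in B throughout. They made up 6.48% of the genes of bins in A throughout (interval 5.88 to 7.13) and 21.4% of those of bins in B throughout (19.2 to 23.7). Bins with 3 or more such genes were in A throughout in 36 of 70 cases (51.4%, 39.2 to 63.6). Bins with no gene of a listed family were in 280 of 371 (75.5%, 70.8 to 79.8), an interval that did not overlap the first. The latter bins can still hold other duplicated genes. Bins with 1 or 2 such genes did not lie between, with 63 of 75 in A throughout (84.0%, 73.7 to 91.4). All 26 kallikrein genes of the gene-dense bins, serine proteases, were in B, in 2 bins of chr 7. All 40 genes of the cornified envelope, the cross-linked coat of skin cells, were in B in 3 bins of chr 3. Of 40 defensins, antimicrobial peptides, 32 were in B, in 3 of 4 bins. Of 28 serpins, inhibitors of serine proteases, 24 were in B, but their 6 bins were divided, with 3 in A and 3 in B. Outside gene-dense bins 55.6% of 9 defensins and 56.25% of 32 serpins were in A throughout.

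Not every duplicated family was in B. Of 106 keratin and keratin-associated genes 84 were in A, and the 22 in B were all in 2 bins of chr 16 that hold keratin-associated proteins of hair. All 21 prolactin family genes of the gene-dense bins were in A, in 2 bins. So were 41 of 42 replication-dependent histone genes, which supply the histones of dividing cells, in the Hist2 bin of chr 3 and the Hist1 bin of chr 13. The Hist1 bin was close to 0, at 0.57, 0.08 and 0.23, on the chromosome where the sign was weakest. Outside gene-dense bins 40% of 5 prolactin family genes and 0% of 25 histone genes were in A throughout. Zinc finger genes named Zfp, mostly repressors of transcription, were divided, with 104 in A, 48 in B and 8 in bins of changing sign. Counts of genes in a family come from few bins, from 1 bin for the 16 type I interferons to 68 for the Zfp genes, so they are not independent.

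**Figure D2:**
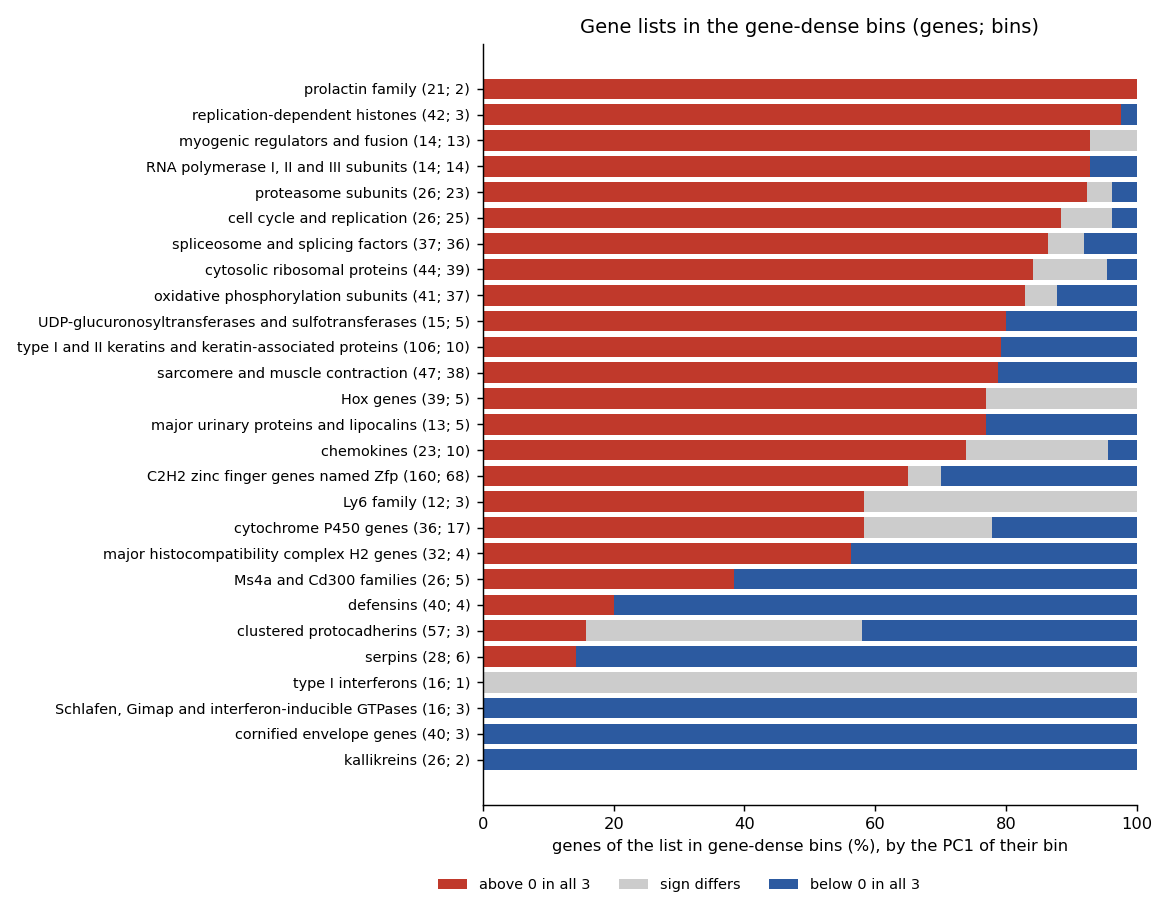
Genes of each list that lay in gene-dense bins (%), divided by whether the PC1 of their bin was above 0 in all 3 conditions, below 0 in all 3 or of differing sign. Numbers after each name are genes and bins. Proteasome subunits were 92.3% in A, while all 26 kallikreins and all 40 cornified envelope genes were in B.

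Gene-dense bins lay together, in 274 runs of adjacent bins. There were 166 single bins and 108 runs of 2 or more, of which 67 were in A throughout, 10 in B throughout and 18 held bins of both kinds. Of the 379 bins in A, 215 had all of their 4 nearest neighbours in A by the mean PC1 of the 3 conditions, and of the 94 bins in B, 52 had none. The longest run had 13 bins with 253 TSSs, chr11:97000001-103500000, and was in A throughout. Its scaled PC1 in myoblasts was 3.09 in the first bin, 1.72 in the keratin and keratin-associated gene bin chr11:99500001-100000000 and 3.02 in the bin of Hdac5, a histone deacetylase. The values of that keratin bin were 1.72, 1.67 and 2.06 in myoblasts, myotubes and AraC-treated myotubes.

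Compartment borders also passed through runs of dense genes. In chr3:92000001-97000000, a run of 10 bins, the first 5 were in B throughout and the last 5 in A. The bin of Lor and Sprr genes, which code for cornified envelope proteins, had −0.10, −0.33 and −0.45, and the bin of S100a10 and S100a11, calcium-binding proteins, had −0.68, −0.68 and −0.87. Further along, the bin of Psmb4, a proteasome subunit, had 0.68, 0.93 and 0.79, and the bin of Prpf3, a splicing factor, had 2.22, 2.23 and 2.20. In chr17:33500001-37000000 the bin of the class II genes H2-Aa and H2-Ab1, which present antigens to T cells, had 1.02, 0.63 and 0.90, and the pair of bins with H2-M genes at the end of the run were in B, with the last at −0.54, −0.56 and −0.79.

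**Figure D3:**
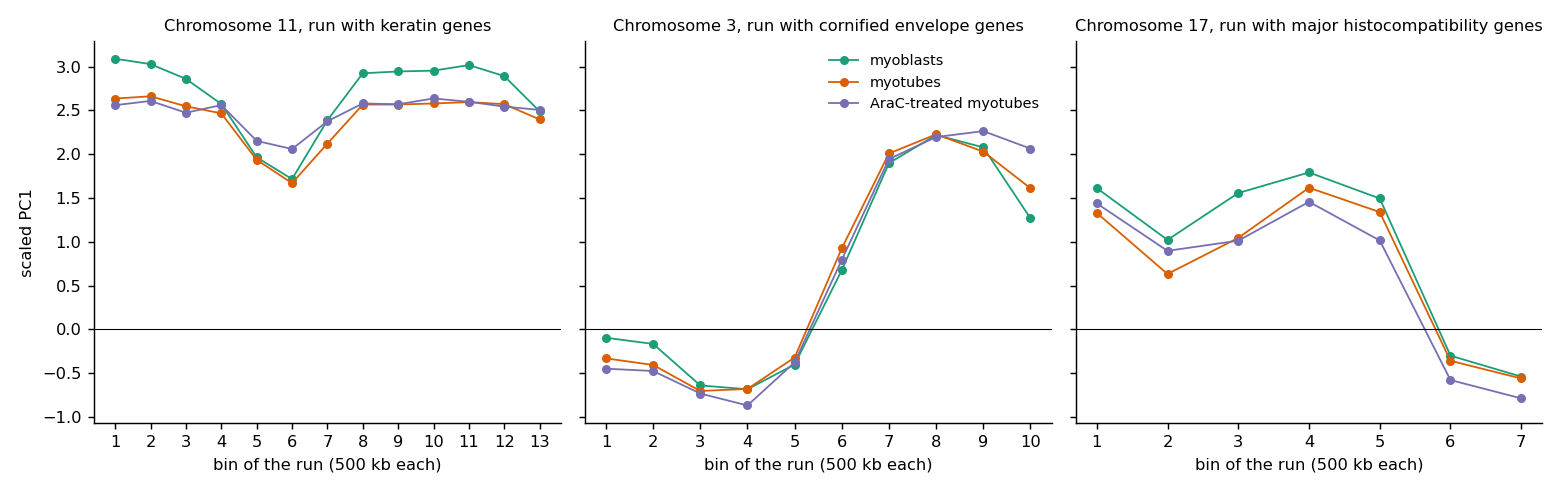
Scaled PC1 along 3 runs of adjacent gene-dense bins, each point 1 bin of 500 kb, in each condition. Values stayed above 0 along the chr 11 run with a dip to 1.72 in myoblasts at the keratin genes, and crossed 0 once along the chr 3 and chr 17 runs.

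The bins with most TSSs were in A. The bin chr11:69500001-70000000 held 43, among them Polr2a, the largest subunit of RNA polymerase II, and Chrnb1, an acetylcholine receptor subunit of muscle, and its scaled PC1 was 2.34, 2.27 and 2.06. The keratin bin above also held 43. The Hist1 bin chr13:23500001-24000000, with 38, was close to 0 at 0.57, 0.08 and 0.23, and its profile of coefficients along the chromosome correlated between myoblasts and myotubes at r = 0.01. The bin chr7:45000001-45500000, with 37 TSSs and the ribosomal protein gene Rpl13a, had 2.33, 2.22 and 1.80. The bin chr14:55500001-56000000, with 36 and the proteasome activators Psme1 and Psme2, had 1.46, 1.19 and 1.13.

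The 3 highest means of scaled PC1 were all on chr 2. The bin chr2:32500001-33000000, with Rpl12, Cdk9, a kinase of transcript elongation, and Dpm2, had 3.58, 3.07 and 2.98. The bins chr2:30500001-31000000, with Tor1a, and chr2:32000001-32500000, with Dnm1, a dynamin of synaptic vesicle recycling, had means of 3.17 and 3.13. The 3 lowest means were on chr 11 and chr 2. The bin chr11:82500001-83000000, with Unc45b, a myosin chaperone of muscle, and Slfn genes, had −1.72, −1.78 and −1.50, and chr2:151500001-152000000, with Psmf1 and Fkbp1a, which binds the calcium release channel of muscle, had −1.26, −1.19 and −1.32.

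The myosin bin chr11:67000001-67500000 holds Myh3, Myh2, Myh1, Myh4, Myh8 and Myh13, the embryonic, perinatal, adult fast and extraocular heavy chains of skeletal muscle. It was in B in all 3 conditions, at −2.0 (myoblasts), −1.30 (myotubes) and −0.91 (AraC-treated myotubes). This was the lowest scaled PC1 of any gene-dense bin in myoblasts and not in either myotube condition, where the Unc45b bin was lower. Undivided PC1 was −1.72, −2.09 and −1.24, so from myoblasts to myotubes the bin rose by 0.70 on the scaled measure but fell on the undivided one, while from myoblasts to AraC-treated myotubes it rose on both. Its mean coefficient with gene-dense bins of other chromosomes, in units of the standard deviation (SD) of coefficients between chromosomes, was −0.96, −0.45 and −0.19.

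Genes of the sarcomere and contraction were in A about as often as all genes of gene-dense bins. Of 47 in gene-dense bins, 37 were in A throughout (78.7%, against 76.1% of all 8032 genes) and 10 in B, and those in B were the 6 Myh genes, Unc45b, Casq1, Lmod2 and Myot. Of 14 genes of myogenic regulation and fusion, 13 were in A throughout (92.9%). The bin of Myog, the myogenin gene that drives differentiation, and Mybph had 2.66, 2.53 and 2.53, and that of Mymx, which acts in myoblast fusion, 2.10, 1.91 and 1.66. The remaining gene of that list, Mstn, an inhibitor of muscle growth, was in a bin at −0.26, −0.23 and 0.10.

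Rises of scaled PC1 in bins of the muscle lists were counted beside those of all gene-dense bins. The lists cover few bins, and a difference was not tested. From myoblasts to myotubes it rose in 20 of the 38 bins of sarcomere and contraction genes. It rose in 6 of the 13 bins of myogenic regulation and fusion genes and in 246 of all 516 gene-dense bins. From myoblasts to AraC-treated myotubes it rose in 19 of 38, 3 of 13 and 203 of 516. Between the myotube conditions it rose in 12 of 38, 3 of 13 and 175 of 516. Counts depended on the scale. Undivided PC1 rose from myoblasts to myotubes for 35 of 47 sarcomere and contraction genes and 13 of 14 myogenic regulation and fusion genes. It rose for 6299 of all 8032 genes of gene-dense bins. Of the 26 genes of cell cycle and replication, which dividing cells use, 23 were in A throughout (88.5%, against 76.1% of all genes of gene-dense bins), and the bins of Top2a, Aurkb and Tk1 had values from 1.94 to 2.87 in all 3 conditions. Others in A were near 0, as Foxm1 at 0.12, 0.32 and 0.17. The gene in B throughout was Plk1, a mitotic kinase, at −0.98, −0.88 and −0.82. Cdc25a and Mcm7 were in bins of changing sign, at −0.62, −0.25 and 0.03 and at −0.10, 0.06 and 0.69.

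The total share of gene-dense bins whose PC1 changed sign was close to that of all autosomal bins. The latter lay within the interval for 2 of the 3 pairs of conditions and above it from myoblasts to AraC-treated myotubes. These totals mix different starting points, because most gene-dense bins were in A and most autosomal bins in B. Of bins in A in myoblasts, 18 of 405 gene-dense and 215 of 1810 autosomal bins were in B in myotubes. In AraC-treated myotubes 22 of these 405 and 308 of these 1810 were in B. Entries into A came from the smaller number of gene-dense bins in B. From myoblasts to myotubes PC1 changed sign in 30 gene-dense bins (5.81%, interval 3.96 to 8.20), against 7.32% of all autosomal bins. As shares of all bins, 18 left A (3.49%, against 4.55%) and 12 entered it (2.33%, against 2.77%). From myoblasts to AraC-treated myotubes PC1 changed sign in 37 (7.17%, 5.10 to 9.75), against 10.2%. Of these, 22 left A (4.26%, against 6.52%) and 15 entered it (2.91%, against 3.72%). From myotubes to AraC-treated myotubes PC1 changed sign in 19 (3.68%, 2.23 to 5.69), against 5.12%. Of these, 10 left A (1.94%, against 3.07%) and 9 entered it (1.74%, against 2.05%). Most changes were near 0: the largest absolute scaled PC1 of a bin that changed had a median of 0.37 over the 43 bins and was below 0.5 in 30, against a median of 1.34 over all gene-dense bins in myoblasts. With both values outside the lowest 20% of absolute PC1 of their chromosome, 2 of 410 gene-dense bins changed from myoblasts to myotubes, against 0.377% of all such autosomal bins. From myoblasts to AraC-treated myotubes 2 of 409 changed, against 1.19%, and between the myotube conditions 0 of 421, against 0.0843%.

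In both comparisons with myoblasts they were 1 bin that entered B and 1 that entered A. The bin chr2:24000001-24500000 holds Il1f5, Il1f6, Il1f8, Il1f9 and Il1f10, cytokines of the interleukin-1 family, and had 0.41, −0.58 and −0.65. The bin chr9:114500001-115000000 holds the chemokine receptor gene Ccr4 and Cmtm6, Cmtm7 and Cmtm8, and had −0.41, 0.41 and 0.93. Both moved in these directions on the undivided PC1 too.

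The pattern of signs over the 3 conditions was most often A, B, B (14 bins) or B, A, A (10 bins), with the change between myoblasts and myotubes. In 8 bins a change to B and in 5 a change to A came between the myotube conditions. Another 4 bins were B and 2 were A in myotubes alone. Some bins with immune genes were among both the A, B, B and the B, A, A bins, and other bins of both patterns held other kinds of genes. How common bins with immune genes are among all gene-dense bins was not counted. The chemokine receptor bins of Ccr4 and of Ccr1, Ccr9 and Cxcr6 were B, A, A. The bins named next were A, B, B. The bin of 16 type I interferon genes, chr4:88500001-89000000, had 0.34, −0.24 and −0.41, and the Cxcl1, Cxcl2, Cxcl3, Cxcl5 and Cxcl15 chemokine bin, chr5:90500001-91000000, had 0.24, −0.28 and −0.55. The bin of Rps19, Zfp428 and Zfp575, chr7:24500001-25000000, which also holds Cd79a, a B cell receptor subunit, had 0.70, −0.12 and −0.08.

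Homeobox clusters, which pattern the body axis, differed from one another. The Hoxd bin chr2:74500001-75000000 had −0.17, −0.00 and 0.65, the rise coming between the myotube conditions. The Hoxa bin chr6:52000001-52500000 stayed in A with a fall on both measures of PC1, from 1.85 in myoblasts to 0.91 in myotubes and 0.80 in AraC-treated myotubes when scaled. Of 39 Hox genes in 5 bins, 30 were in A throughout (76.9%, against 76.1% of all genes of gene-dense bins) and 0 in B throughout.

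Large rises were also found in bins that stayed in A. From myoblasts to myotubes the largest rise of scaled PC1 was that of chr4:123000001-123500000, with Bmp8a, Bmp8b and the Notch target Heyl, at 0.61, 1.47 and 1.29. The bin chr9:119000001-119500000, with the adaptor gene Myd88 and the activin receptor gene Acvr2b, had 0.22, 1.03 and 1.55. Between the myotube conditions the largest rise of scaled PC1 was in chr2:130000001-130500000, with Snrpb and Nop56, which act in splicing and ribosome assembly, at 0.52, 0.46 and 1.28, and the bin of the Ugt1a detoxifying enzymes, chr1:88000001-88500000, had 0.79, 0.94 and 1.59. The largest falls of scaled PC1 between them were in chr9:20500001-21000000, with the DNA methyltransferase gene Dnmt1, at 0.58, 0.47 and −0.19, in its neighbour chr9:21000001-21500000, with Cdc37 and Cdkn2d, at 1.73, 1.75 and 1.09, and in chr17:56000001-56500000, with the chromatin assembly gene Chaf1a, at 0.88, 0.87 and 0.24. All of these, and the other largest rises and falls named in the plots of scaled PC1, kept their direction on undivided PC1 and as ranks, but the order depended on the scale. On undivided PC1 the largest rise from myoblasts to myotubes was 2.25, in the bin of the proteasome gene Psmc5, chr11:106000001-106500000, and the largest fall between the myotube conditions was that of the Cdc37 bin, by 1.33.

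**Figure D4:**
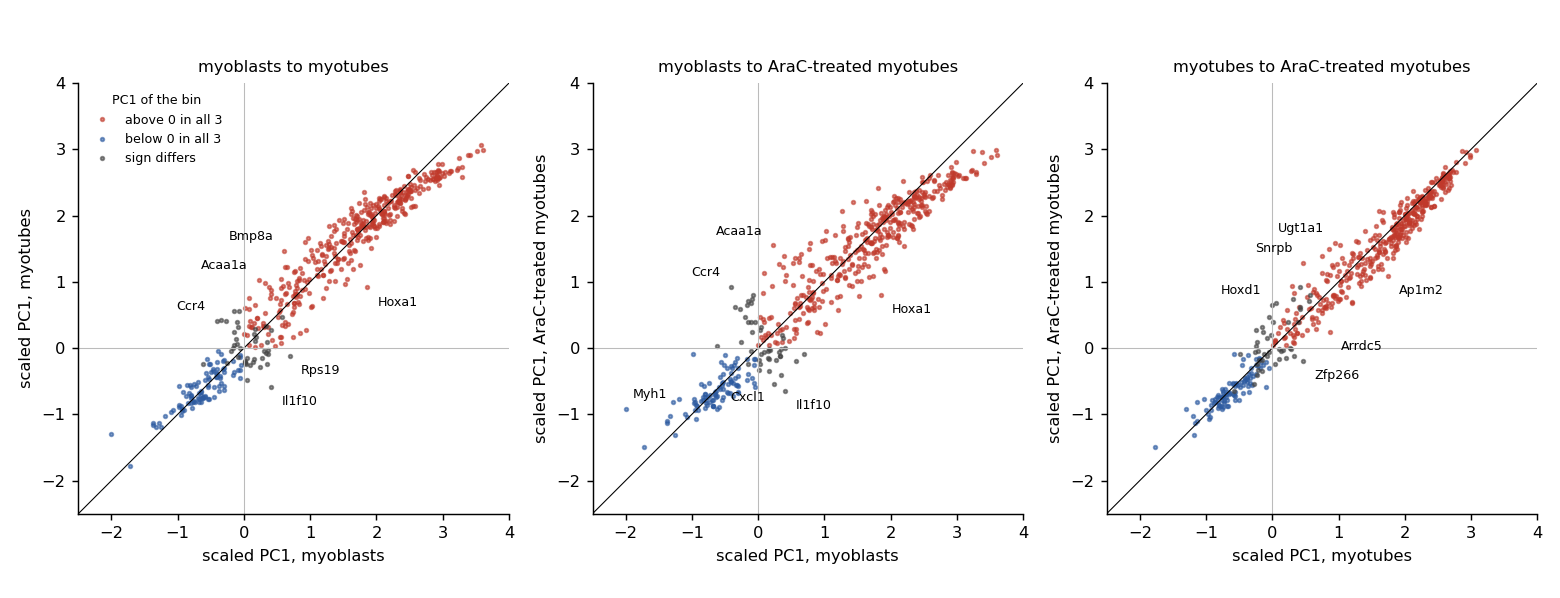
Scaled PC1 (PC1 divided by its SD over autosomal bins, no unit) of the 516 gene-dense bins, 1 condition against another, coloured by the sign of PC1, with the line of equal values. The 3 largest rises and falls of each pair are marked by 1 gene. Most bins lay near the line, and the Il1f10 and Ccr4 bins lay on opposite sides of it, at 0.41 and −0.58 and at −0.41 and 0.41 in myoblasts and myotubes.

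Over all gene-dense bins the scaled PC1 rose in 246 (47.7%) from myoblasts to myotubes, against 47.5% of all autosomal bins. It rose in 203 (39.3%, interval 35.1 to 43.7) from myoblasts to AraC-treated myotubes, against 46.9%, and in 175 (33.9%, 29.8 to 38.2) from myotubes to AraC-treated myotubes, against 47.0%. Undivided PC1 rose in 76.6%, 74.8% and 26.2% of them, so the majority from myoblasts to either myotube condition flips with the scale. Undivided PC1 follows the SD of each condition, and between the myotube conditions it rose in 22.5% of the other bins in A throughout and 84.2% of the other bins in B throughout, so its count is no separate support. Among bins in A throughout, the scaled PC1 rose between the myotube conditions in 113 of 379 gene-dense bins (29.8%) and in 533 of 1099 other bins (48.5%). The median fall over the 516 gene-dense bins was small, at −0.06 of an SD, against −0.01 over all autosomal bins.

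The profile of a bin, its coefficients with the other bins of its chromosome, was compared between conditions by Pearson r. The median r of gene-dense bins was 0.93 from myoblasts to myotubes, 0.89 from myoblasts to AraC-treated myotubes and 0.97 between the myotube conditions, against 0.88, 0.84 and 0.95 over all autosomal bins. For gene-dense bins in A throughout it was 0.95, 0.92 and 0.98, against 0.88, 0.84 and 0.95 for other bins in A. For gene-dense bins in B throughout it was slightly lower than for other bins in B, at 0.87, 0.82 and 0.94 against 0.89, 0.85 and 0.95. Over all gene-dense bins r was below 0 in 16 bins (3.10%, against 3.28%), 19 bins (3.68%, against 5.80%) and 4 bins (0.775%, against 1.16%). In 13 of the 16 and 15 of the 19 PC1 changed sign as well.

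The bins with the lowest r were of several kinds. The bin chr3:107000001-107500000, with the potassium channel genes Kcna2, Kcna3 and Kcna10, had r = −0.42 from myoblasts to myotubes. The bin chr8:104500001-105000000, with the carboxylesterase genes Ces2a, Ces2b, Ces2c and Ces2e, had r = −0.38, and its scaled PC1 was −0.28, 0.41 and 0.59. The bin chr11:114500001-115000000, with Cd300 genes, receptors of myeloid cells, had r = −0.43 from myoblasts to AraC-treated myotubes and −0.48 from myotubes, although its scaled PC1 stayed below 0, at −0.98, −0.58 and −0.09. The bin chr14:59000001-59500000, with Phf11 genes, had r = −0.23 between the myotube conditions.

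Gene-dense bins of different chromosomes correlated with one another. Over 124524 pairs their mean coefficient was 0.0653, 0.0991 and 0.0770 in the 3 conditions, with an SD over the means of the 19 autosomes of 0.0197, 0.0365 and 0.0321. With bins without a TSS it was −0.0221, −0.0540 and −0.0432, and with receptor gene bins −0.0139, −0.0379 and −0.0294. Coefficients as a whole were spread more widely in myotubes, with an SD between chromosomes of 0.0446, 0.0890 and 0.0732, so levels are not compared between conditions. In units of that SD the mean among gene-dense bins was 1.46, 1.11 and 1.05.

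The mean joined bins of opposite kinds. Between gene-dense bins in A throughout it was 0.136, 0.228 and 0.177, above the 0.0520, 0.0905 and 0.0779 between other bins in A by more than the SD over chromosomes in each condition. Between gene-dense bins in B it was 0.0242, 0.0555 and 0.0405, and between a gene-dense bin in A and one in B −0.0389, −0.0936 and −0.0759. With bins without a TSS the gene-dense bins in B had a positive mean too, at 0.0154, 0.0448 and 0.0330. PC1 used only coefficients within a chromosome, but all coefficients come from the same profiles, so these means are not independent of the compartment.

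**Figure D5:**
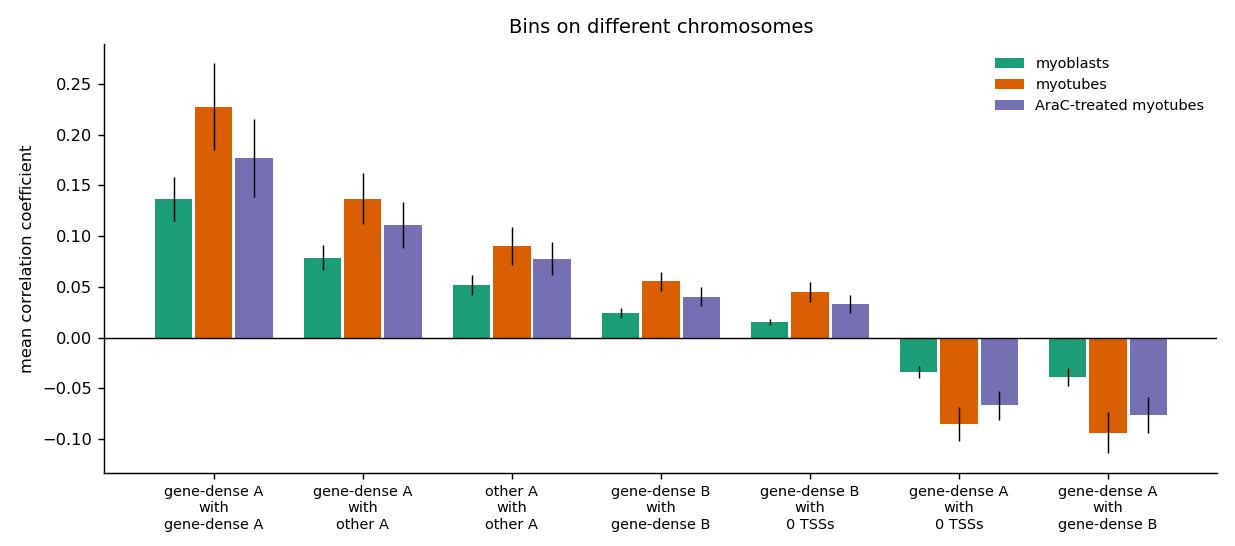
Mean correlation coefficient between bins on different chromosomes in each condition, for gene-dense bins in A or B in all 3 conditions, other bins in A and bins without a TSS. Bars start at 0 and error bars are the SD over the means of the autosomes. Gene-dense bins in A reached 0.228 with one another in myotubes and −0.0936 with gene-dense bins in B.

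The same few bins stood at the top of these correlations. The highest means with gene-dense bins elsewhere, 3.75, 2.74 and 2.64 of the SD, were those of chr10:80500001-81000000, with the splicing genes Lsm7 and Sf3a2. The Rpl12 bin of chr 2 and chr17:25500001-26000000, with Capn15 and Chtf18, followed. Ranked by the mean over conditions in units of the SD, the first pair was the Lsm7 bin and chr15:76000001-76500000, with Cyc1, a respiratory chain subunit, and Bop1, a ribosome assembly factor, at 0.467, 0.647 and 0.494, and the next were the Lsm7 bin with the Dnm1 bin and with the Rpl12 bin of chr 2. The lowest means were those of chr5:146000001-146500000, with Cyp3a genes of drug metabolism, at −1.33, −1.06 and −0.92 of the SD, chr13:60500001-61000000, with Ctla2a, Ctla2b and placental Tpbpa and Tpbpb, and chr1:171500001-172000000, with the lymphocyte receptor genes Cd48, Cd84, Cd244a and Ly9.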

How the data were processed

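Hi-C was performed on 6 HindIII libraries, 2 biological replicates in each of 3 conditions. The authors mapped reads with Bowtie, filtered di-tags in HiCUP, pooled replicates and normalised contacts in HOMER. The deposited values are a score for each pair of 500 kb bins, the Pearson correlation coefficient of their normalised interaction profiles, and a bin without data is listed at 0. The methods name the mouse reference for mapping as GRCh38 and the processing notes list GRCh38 and mm10. The number of bins of each autosome is that given by mm10 chromosome lengths, or 1 fewer. No column of an unmapped sample was present.

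PC1 was computed here for each chromosome and condition from the block of coefficients within the chromosome, after the columns were centred but left unscaled. Each PC1 was turned to correlate positively with TSS counts. Bins were annotated from GENCODE vM21. The members and gene lists were chosen with earlier results of these data known. Bins named are the 5 with most TSSs, the 3 highest and 3 lowest by mean scaled PC1, by change and by coefficients between chromosomes, the 3 with the lowest profile r, the top pairs, and bins of listed muscle and cell cycle genes. Other examples from the lists, runs and sign patterns were chosen after their values were seen. Alternatives changed the TSS minimum, the centring and scaling of PC1, the profile, thresholds and the averaging. Scripts used Python 3.11.15, numpy 2.4.6, scipy 1.17.1, pandas 2.3.3 and matplotlib 3.10.9 and were tested on simulated data.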

Additional observations from a re-analysis of the deposited data

How the results depend on the processing

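No paired analysis was possible because the replicates of each condition were pooled before deposit, so no value could be recomputed without a replicate. Of 129 values recomputed under other settings, 86 stayed on their side of an even split or of 0 and moved little (shares within their counting interval, counts of sign changes and of r below 0 within 1.5 times, mean coefficients within the SD over chromosomes), 40 moved further and 3 changed direction. The cause of these changes was not tested. Values follow in the order myoblasts, myotubes and AraC-treated myotubes, or myoblasts to myotubes, myoblasts to AraC-treated myotubes and myotubes to AraC-treated myotubes.

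With a minimum of 15 TSSs the share of bins with PC1 above 0 was 85.2%, 84.7% and 82.3%, sign changes were 3.35% in the first and 2.39% in the last pair of conditions, profile r was below 0 in 0.957%, 0.957% and 0%, the mean coefficient between chromosomes was 0.0992, 0.152 and 0.115, and scaled PC1 rose in 33.5% from myoblasts and 29.2% from myotubes to AraC-treated myotubes. With the first bin of each run only, the share above 0 was 73.0%, 72.3% and 71.5%, r was below 0 in 4.74%, 6.20% and 1.46%, the mean coefficient was 0.0390, 0.0578 and 0.0446, and scaled PC1 rose in 54.4% from myoblasts to myotubes, a change of direction, and 44.2% from myoblasts to AraC-treated myotubes. Undivided PC1 rose in 76.6% and 74.8%, both changes of direction, and 26.2%. PC1 without centring rose in 42.6% in the first and 43.8% in the last pair, and ranks rose in 38.6% in the last pair. Outside the lowest 20% of absolute PC1 signs changed in 0.488%, 0.489% and 0%. Profile r was below 0.2 in 4.84%, 6.20% and 1.74%, and below 0 over other autosomes in 0.388% in the last pair. The median coefficient between chromosomes was 0.0358, 0.0523 and 0.0440, and the mean in units of the SD 1.46, 1.11 and 1.05.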

Other observations

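Values of 5 further gene-dense bins that differed in sign between conditions follow. They were picked with their values in view. The bin of the crystallin genes Cryga to Cryge, structural proteins of the lens, chr1:65000001-65500000, had a scaled PC1 of 0.33, −0.08 and −0.11 in myoblasts, myotubes and AraC-treated myotubes. The bin of the trace amine receptor genes Taar1 to Taar4, chr10:23500001-24000000, had 0.27, −0.15 and −0.18. The bin of the alcohol dehydrogenase genes Adh1, Adh4, Adh5 and Adh7, chr3:138000001-138500000, had 0.34, 0.10 and −0.01. In the other direction, the bin of the chemokine receptor genes Ccr1, Ccr9 and Cxcr6, chr9:123500001-124000000, had −0.08, 0.56 and 0.80. The bin of the proteasome gene Psma7 and the ribosomal protein gene Rps21, chr2:180000001-180500000, had −0.35, 0.43 and 0.62.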
